A study of Homo sapiens with 30 samples.

Results

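The regions described here were open in hindbrain medium whichever day 2 population the cells came from, and closed in the other media. They were chosen from peak lists of chromosomes 1 to 22. Peaks of all 10 lists were merged where they overlapped by at least 1 bp, which gave 476170 regions, and a list was called open at a region where it had a peak. The 5404 members had a peak in both hindbrain medium lists, named aNE_H and pNE_H, and no peak in aNE_T, aNE_M, pNE_T or pNE_M. They made up 1.13% of all merged regions. Their openness on day 4 is thus set by the choice and is given below as a description only.

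The assay was OmniATAC-seq, which marks accessible DNA by letting a transposase insert sequencing adapters there. Each library used 50000 cells of H1, a human embryonic stem cell line, and every group had the wild-type genotype. The labels give 30 libraries in 10 groups of 3 numbered replicates, but each group has 1 peak list with positions only, so the values have no replicate error and read depth is unknown. Undifferentiated cells (hPSC) were taken on day 0. Definitive ectoderm (DE) was taken on day 1, after A8301 and LDN193189, which block TGF-beta and BMP receptors, the MEK inhibitor trametinib and the WNT secretion inhibitor C59. Anterior neural ectoderm (aNE) was made from DE by day 2 with A8301, LDN193189 and C59. Posterior neural ectoderm (pNE) was also made from DE by day 2 with A8301, LDN193189, the retinoic acid receptor agonist TTNPB at 50 nM, FGF2 at 20 ng/mL and the tankyrase inhibitor XAV939. Both day 2 media also held the ROCK inhibitor thiazovivin. The 6 day 4 groups are aNE or pNE cells moved to telencephalon (T), midbrain (M) or hindbrain (H) medium, and the make-up of the hindbrain medium is not given in the sources used here. Cells for day 4 were plated at 75000 per square cm in the aNE protocol and at 150000 in the pNE protocol, so origin and plating density cannot be told apart.

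The hindbrain is the part of the neural tube that forms the pons, cerebellum and medulla. It is divided along its length into rhombomeres, whose identities are set by HOX genes and by segmentation factors such as EGR2. Retinoic acid, FGF and WNT signals promote posterior fates in the neural plate, and retinoic acid acts through receptors that bind repeats of a short DNA element. Distal enhancers open and close more freely between related cell types than promoters do.

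The promoters that members touched are shown first, since sequence was at hand only for promoter windows, running from 250 bases before to 50 bases after a start site. Of 33558 such windows, 63 (0.188%) were touched by 55 members, whereas 59.6% of the windows had an aNE_H peak. The genes were 24 protein-coding and 33 long noncoding RNA genes. Among the 55 members, 21 were open in none of the earlier lists, 21 were open in pNE and 5 in aNE. Over all 5404 members the shares were 51.4%, 27.6% and 7.81%. The 5 stretches below were picked after their values were seen, to show members with different pasts, and each is the 250 bases before the start site, 5′ to 3′ on the gene's strand, from RefSeq (GRCh38.p14). Capitals mark the bases inside both the aNE_H and the pNE_H peak.
P2RY14: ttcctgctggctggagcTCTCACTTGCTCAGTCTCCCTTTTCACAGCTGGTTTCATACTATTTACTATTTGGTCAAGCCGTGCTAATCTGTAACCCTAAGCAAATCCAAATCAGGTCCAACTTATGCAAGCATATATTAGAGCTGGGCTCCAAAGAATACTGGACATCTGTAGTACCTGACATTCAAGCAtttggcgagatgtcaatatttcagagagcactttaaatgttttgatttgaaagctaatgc
CPED1: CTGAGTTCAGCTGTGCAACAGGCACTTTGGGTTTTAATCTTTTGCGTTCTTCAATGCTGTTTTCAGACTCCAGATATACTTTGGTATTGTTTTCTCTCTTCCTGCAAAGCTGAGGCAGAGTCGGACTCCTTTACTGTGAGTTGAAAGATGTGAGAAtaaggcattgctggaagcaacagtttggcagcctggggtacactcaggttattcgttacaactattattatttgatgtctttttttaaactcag
SMYD3: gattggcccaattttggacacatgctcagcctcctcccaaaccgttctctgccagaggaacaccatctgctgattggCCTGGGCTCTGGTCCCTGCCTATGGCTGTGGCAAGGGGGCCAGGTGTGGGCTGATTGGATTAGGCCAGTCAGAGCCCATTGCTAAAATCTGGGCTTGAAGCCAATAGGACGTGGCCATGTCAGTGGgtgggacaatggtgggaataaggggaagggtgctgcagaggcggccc
GSTM5: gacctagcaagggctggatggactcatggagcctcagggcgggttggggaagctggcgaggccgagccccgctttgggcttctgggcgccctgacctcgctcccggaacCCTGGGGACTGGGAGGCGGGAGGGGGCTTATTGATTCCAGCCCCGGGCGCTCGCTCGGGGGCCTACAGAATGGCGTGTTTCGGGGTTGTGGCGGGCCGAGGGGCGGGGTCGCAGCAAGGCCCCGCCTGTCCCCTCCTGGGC
GPR85: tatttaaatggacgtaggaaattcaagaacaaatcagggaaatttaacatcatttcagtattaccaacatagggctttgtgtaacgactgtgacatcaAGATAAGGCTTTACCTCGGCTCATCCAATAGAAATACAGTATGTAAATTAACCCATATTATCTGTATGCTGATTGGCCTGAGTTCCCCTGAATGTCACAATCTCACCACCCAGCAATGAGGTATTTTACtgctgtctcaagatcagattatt

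The P2RY14 stretch lies at chr3:151248992-151249241 on the minus strand, upstream of a gene for a receptor of UDP-sugars. Its member had a peak of 173 bp in aNE_H and of 365 bp in pNE_H, and 173 of the 250 bases lay in both. The CPED1 stretch lies at chr7:120989141-120989390 on the plus strand, and its peaks were 325 bp and 318 bp wide. Neither member had a peak in any earlier list. SMYD3 encodes a lysine methyltransferase, and its stretch at chr1:245988552-245988801 on the minus strand belonged to a member that was open in pNE and in no other earlier list. GSTM5, a glutathione transferase gene, has its stretch at chr1:109712001-109712250 on the plus strand, and its member was open in hPSC, DE and pNE and closed in aNE. GPR85, which encodes an orphan receptor of the nervous system, has its stretch at chr7:113087725-113087974 on the minus strand, and its member was open in all 4 earlier lists.

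Promoter windows touched by members were poorer in G and C than others, with a median GC content of 50% against 58.7% over all windows and 65% over windows with an aNE_H peak. They held a median of 5 CG pairs against 14 over all windows and 25 with an aNE_H peak. Letters of 20 motifs, for factors of the neural tube and others, were then searched on both strands of the whole window. Only some of them are described. The direct repeat of the retinoic acid receptor with 5 spacer bases was in 0 of the 63 windows and in 0.0805% of all windows. The letters TGATTNAT, bound by PBX with HOX proteins, were in 1 window (1.59%, against 2.84% of all), and the homeodomain core TAATTA was in 2 (3.17%, against 4.91%). The SOX core ACAATG was in 11 (17.5%), against 10.8% of all windows and 6.67% of those with an aNE_H peak. The ZIC letters CAGCAGG were also in 11, against 10.5% of all windows. The MEIS letters TGACAG were in 20.6%, against 15.8% of all windows. Shares below those of all windows were seen for GGAATG of TEAD (11.1% against 14.1%) and TGANTCA of AP-1 (6.35% against 7.68%). No test was made of these shares, and the windows differ in base composition. Some windows overlap, so the same match can be counted again. A match can also lie outside the member, which covered 42 of the 300 bases at F10-AS1. A match says only that the letters are there.

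The hindbrain pair was next set beside the other pairs of day 4 lists. There are 9 ways to pair 1 aNE-derived with 1 pNE-derived list, and for each the regions open in exactly those 2 of the 6 lists were counted. The hindbrain pair had 5404, the telencephalon pair 3036 and the midbrain pair 924. The pairs of pNE_H with another medium were also large, at 4988 with aNE_M and 3545 with aNE_T, whereas aNE_H had 1431 with pNE_M and 601 with pNE_T. The pNE_H list was the longest, with 302355 peaks on chromosomes 1 to 22, and aNE_H had 196961. Between 191380 and 211358 peaks were in the other 4 day 4 lists.

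**Figure D1:**
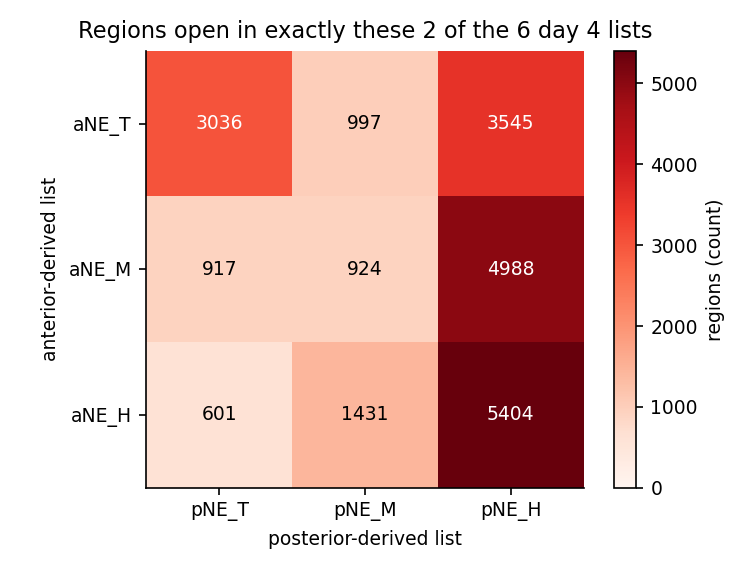
Number of merged regions open in exactly 1 aNE-derived list (rows) and 1 pNE-derived list (columns) among the 6 day 4 lists, with darker red for more regions. The pNE_H column holds the 3 largest counts, with 5404 for aNE_H and 4988 for aNE_M.

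The overlap was then taken as a share of each list. Of the 25924 regions open in aNE_H and in neither other aNE-derived list, 20.8% formed the hindbrain pair. The matching share for aNE_M with pNE_H was 22.5% of 22216 regions, so sharing with pNE_H was no more frequent in aNE_H than in aNE_M. pNE_H had 89446 regions that were closed in pNE_T and pNE_M, and 6.04% of them were members, 5.58% were shared with aNE_M alone and 3.96% with aNE_T alone. After every list was trimmed to 162041 peaks, keeping the widest, 9.59% of such aNE_H regions and 10.4% of such aNE_M regions were shared with pNE_H. That trimming left 2251 members.

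Members were a thin edge of a much larger overlap. Both hindbrain medium lists were open at 154790 regions, of which 96805 were open in all 6 day 4 lists. Just outside the rule lay 11331 regions with a peak in exactly 1 of the 4 other lists. That list was aNE_M for 6118 of them, pNE_M for 3042, pNE_T for 1189 and aNE_T for 982. The peaks that kept these regions out were narrow, with medians from 178.5 bp in aNE_T to 198 bp in pNE_M. At the 6118 with an aNE_M peak, pNE was open at 61.7% and aNE at 13.7%, and at the 982 with an aNE_T peak at 47.3% and 38.1%. For pNE_T the shares were 39.2% and 13.2%, and for pNE_M 35.2% and 10.2%. A higher share in pNE than in aNE was thus also seen just outside the rule. Of the members themselves, 21.7% had a peak of one of the closed lists within 500 bp, and the median distance to the nearest such peak was 1966 bp.

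Peaks at members were narrow in both lists. The aNE_H peak had a median width of 172 bp (middle 50% from 140 to 223 bp), against 299 bp at the other regions open in that list. The pNE_H peak had a median of 186 bp (139 to 270 bp), against 294 bp. Regions open in all 10 lists had wider peaks, at 508 bp in aNE_H and 634 bp in pNE_H. The narrowest peak at any member was 126 bp in aNE_H and 109 bp in pNE_H, which are also the narrowest widths of those lists. Peak width is the one measure of size these lists hold, and it is neither a height nor a read count.

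**Figure D2:**
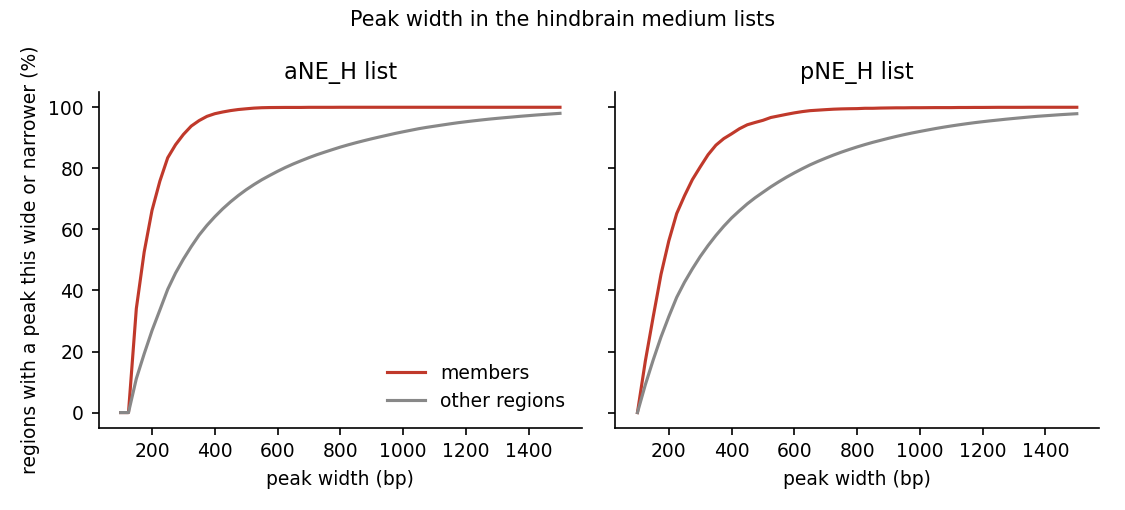
Percentage of regions (vertical axis) whose widest peak is at or below a given width in bp (horizontal axis), in the aNE_H list (left) and the pNE_H list (right), for the 5404 members (red) and all other regions open in that list (grey). Members lie to the left of other regions in both lists, with medians of 172 and 186 bp.

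Overlap of the aNE_H and pNE_H peaks at 99.2% of members (5363) follows largely from the merging, which forces it where no earlier list has a peak. The overlap was at least 50% of the narrower peak at 91.2%. A single peak of each list lay at 99.3% of members. The median number of bases in both peaks was 131. The pNE_H peak was the wider one at 54.1% of members (Wilson 95% interval 52.8% to 55.4%).

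The state of members in the earlier lists, which the rule did not use, is the main readout. Of the 5404 members, 27.6% were open in pNE (1489 regions, Wilson 95% interval 26.4% to 28.8%) and 7.81% in aNE (422 regions, 7.12% to 8.55%). Over all merged regions 39.2% were open in pNE and 32.0% in aNE. The members were therefore closed more often than other regions in both lists, and the ratio of pNE to aNE was 3.53 at members and 1.22 over all regions. DE was open at 23.6% of members (22.5% to 24.7%) against 46.9% of all regions, and hPSC at 21.5% (20.4% to 22.6%) against 40.5%. All merged regions include regions without a day 4 peak, which must have an earlier peak, whereas every member is open on day 4. The intervals cover the sampling of regions and not replicate or library error.

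The order of the day 2 lists at members held under every alternative run, with pNE above aNE by 16.3 to 20.0 percentage points against 19.7 as deposited. The ratio was less steady, at 2.16 in lists trimmed to their widest 162041 peaks and 5.01 where peaks had to cover 50% of the merged region, beside 1.01 and 1.27 over all regions. So were the levels. In the trimmed lists of 162041 peaks the aNE share was 14.7%. Where peaks had to cover 50% of the merged region, the shares were 4.07% in aNE, 13.9% in DE and 12.6% in hPSC.

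**Figure D3:**
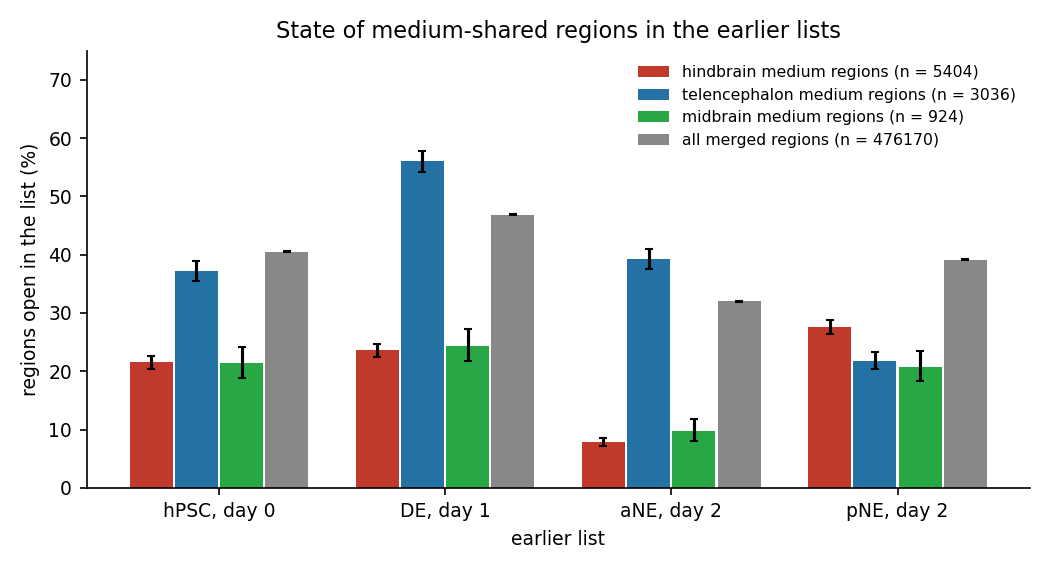
Percentage of regions open in each earlier list (hPSC, DE, aNE, pNE) for hindbrain (red), telencephalon (blue) and midbrain (green) medium regions and all merged regions (grey), with Wilson 95% intervals over regions. Hindbrain medium regions are open in 7.81% in aNE and 27.6% in pNE, and telencephalon medium regions in 39.3% and 21.7%.

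The regions shared by both telencephalon medium lists, and by no other day 4 list, had the opposite order on day 2. aNE was open at 39.3% of those 3036 regions and pNE at 21.7%, a difference of -17.6 percentage points. They were also open more often in DE (56.0%) and hPSC (37.2%) than members were. The 924 regions of the midbrain pair were nearer to the members, where pNE was open at 20.8% and aNE at 9.74%, and the earlier DE and hPSC lists at 24.4% and 21.4%. Regions open in only 1 hindbrain medium list among the 6 had lower shares, at 4.29% in aNE and 11.2% in pNE for the 12220 of aNE_H. For the 60328 of pNE_H the shares were 2.50% and 5.37%. With 1 list per group no replicate test of these differences could be made.

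The rule also removes regions that pass from day 2 into the closed lists, and it does so unequally. Of all regions open in aNE, 84.8% were open in aNE_T and 81.6% in aNE_M, and of those open in pNE 74.7% and 82.9%. In pNE_T the shares were 74.3% of the aNE and 70.5% of the pNE regions, and in pNE_M 72.3% and 71.8%. In aNE_H they were 75.2% and 78.4%, and in pNE_H 82.1% and 85.9%. The part of this carry-over in the day 2 difference at members was not tested.

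Each member was then placed by its whole history. The largest class, 2780 members or 51.4% (50.1% to 52.8%), had no peak in any earlier list, a state that 35.0% of all merged regions shared. So did 32.9% of the telencephalon and 55.2% of the midbrain medium regions. At regions open on day 4 in aNE_H only the share was 71.1%, and in pNE_H only 83.5%. The 35.0% is over an unlike set, since regions without a day 4 peak cannot be in this class. The next class of members was open in pNE alone, with 766 members or 14.2%, against 6.84% of all merged regions. Members thus made up 2.35 of every 100 regions open in pNE alone and 1.67 of every 100 open in none. For regions open in aNE alone the figure was 0.937, from 57 members. These rates have unlike bases, because regions open in none all have a day 4 peak and the others need not. Regions open in all 4 earlier lists are the commonest open class of the series, at 21.7% of regions, and 116 members (2.15%) were of that class. The rule itself keeps most such regions out, because 78808 of the 103540 were open in all 10 lists. Of the midbrain medium regions 1.73% were open in all 4 earlier lists, and of the telencephalon medium regions 11.1%.

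**Figure D4:**
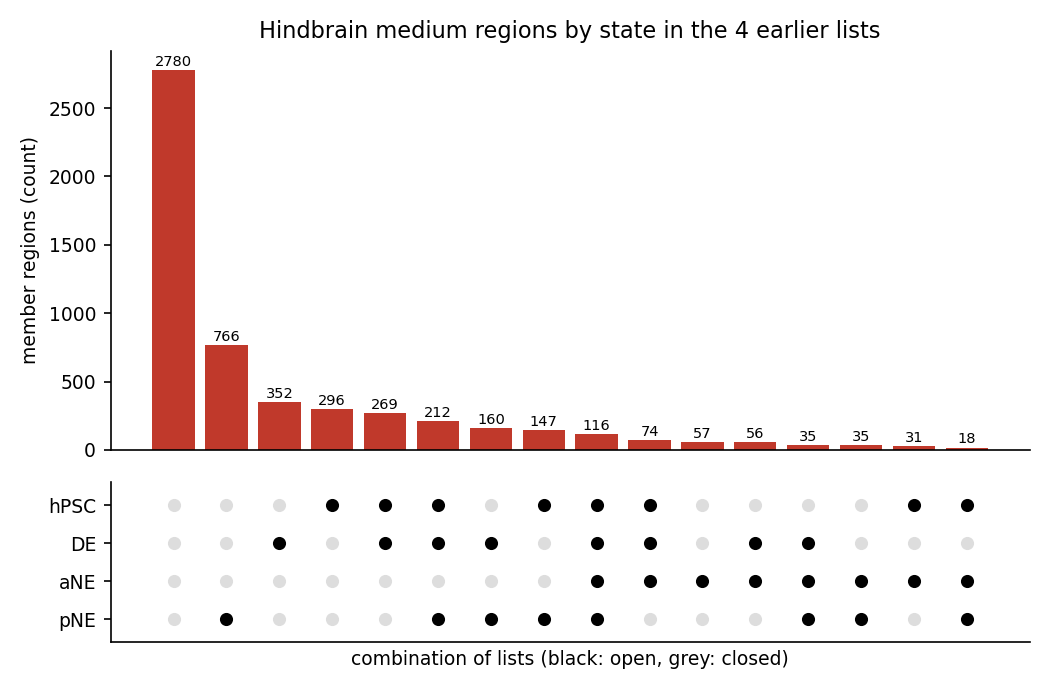
Number of members (bars, labelled) in each of the 16 combinations of open (black) and closed (grey) states in hPSC, DE, aNE and pNE. The class with no earlier peak holds 2780 members and the class open in pNE alone 766.

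Some members had been open before neural induction and closed on day 2. These 917 regions (17.0%) had a peak in hPSC or DE and in neither day 2 list, against 20.3% of all regions. Of them 352 were open in DE alone, 296 in hPSC alone and 269 in both. A further 858 members (15.9%) were first open on day 2, against 9.34% of all regions. The share was 6.19% at the telencephalon and 11.7% at the midbrain medium regions. Both shares given over all regions include regions without a day 4 peak. Members open in pNE had slightly wider peaks on day 4 than members closed in pNE, with medians of 181 against 169 bp in aNE_H and 195 against 183 bp in pNE_H.

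Members lay mostly far from promoters. A gene end, either 5′ or 3′, lay within 1 kb of 417 members, 7.72% (7.03% to 8.46%), against 11.2% of all merged regions. The shares for the telencephalon and midbrain medium regions were 8.37% and 7.90%, with intervals that include the value of the members. Of the 5116 members on chromosomes with start sites in the promoter table, 151 (2.95%) were within 1 kb of a start site, against 5.49% of all regions, and the median distance to a start site was 41665 bp against 35298 bp. The middle of 47.4% of members lay inside a protein-coding gene, against 50.05% of all regions. Exon positions were not used here.

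The pNE share was above the aNE share at members near to and far from genes. The 1098 members with no gene end within 50 kb were open in pNE in 26.9% and in aNE in 6.28% of cases. Among the 417 members within 1 kb of a gene end, the shares were 28.8% and 11.8%. Over all regions pNE was also above aNE, at 34.7% against 24.5% beyond 50 kb and 57.6% against 53.1% within 1 kb. The hPSC share was higher near gene ends, at 31.4%, than beyond 50 kb, at 16.4%, as it was over all regions (61.6% and 30.9%).

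Members lay on every one of these chromosomes. Per 100 merged regions there were 1.55 on each of chromosomes 4 and 13, 1.30 on chromosome 7 and 0.738 on chromosome 20. Chromosomes 4 and 13 have few genes for their regions, with 2.65 and 2.14 protein-coding genes per 100 regions, but chromosome 18, with 2.09, had 1.10 members per 100. Another member lay within 10 kb of 5.55% of members and within 100 kb of 36.6%, and the median distance to the nearest other member was 154167 bp. The spacing that random placement would give was not computed. Of the fixed windows of 100 kb that held members, 4285 held 1, 494 held 2, 41 held 3 and 2 held 4.

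Gene groups relevant to the neural tube were counted with 50 kb added at both ends of every gene. Over all 19122 protein-coding genes 24.1% had at least 1 member in the window, and 1.06 of every 100 merged regions in such windows were members, each region counted once. Those windows held 3656 members, of which 1744 had no earlier peak, 1044 were open in pNE and 343 in aNE. DE was open at 973 of them and hPSC at 907. The rate per 100 regions is the background for a group, since genes with many regions meet members more often. The lists were chosen with earlier results of these data known.

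The hindbrain list holds HOX genes of paralog groups expressed in rhombomeres, their TALE partners MEIS and PBX, and segmentation factors. Of its 32 genes 15 had a member, but their windows were also rich in regions, with a median of 44.5 against 27 over all genes. Per 100 regions there were 1.15 members (15 of 1310, Wilson 0.695 to 1.88), near the background of 1.06. In the trimmed lists 5 genes had a member and the rate was 0.489, where all protein-coding genes had 0.574 and 10.7% of them had a member. Of the 15 members 6 were open in pNE, 1 in aNE, 4 in DE and 6 in hPSC, and 5 in none. By this count the regions were not concentrated at hindbrain genes, so they are named here by their medium and not as hindbrain enhancers.

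The member counted for HOXB1 lay outside the HOXB cluster. It is at chr17:48488857-48489095 (GRCh38), 39.4 kb beyond the end of HOXB1, toward SKAP1, and had peaks of 157 bp in aNE_H and 139 bp in pNE_H and no earlier peak. SKAP1, the gene next to the HOXB cluster, had 2 more members inside it, at chr17:48433014-48433407, open in pNE alone, and at chr17:48193558-48193771, open in no earlier list. The 27 trunk HOX genes had 0 members among 287 regions, which allows a share of up to 1.05% by a limit of 3 counts and up to 1.32% by the Wilson interval. The background of 1.06 lies between these limits, so a rate below it was not shown.

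EGR2, a segmentation factor needed for certain rhombomeres, had no member within 50 kb. The nearest lay 174 kb away at chr10:62637360-62637663, with no earlier peak. EPHA4, an ephrin receptor that keeps rhombomere cells apart, had 1 member inside it at chr2:221474476-221474609. NR6A1, a nuclear receptor gene that is active in early embryos, had 2 among 116 regions, both open in hPSC and 1 of them in pNE.

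FGF3, a signal made in the hindbrain, had 1 at chr11:69798181-69798758, open in DE, where the peaks of both lists shared 21 bp.

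The retinoic acid list covers receptors, synthesis and breakdown enzymes and carriers. Of its 20 genes 6 had a member, with 11 of 891 regions, or 1.23 per 100 (0.691 to 2.20). RARB, a receptor gene that is itself a target of retinoic acid, had 3 members inside it among 194 regions in its window. They lie at chr3:25346565-25346857, chr3:25438590-25438992 and chr3:25507493-25507716, and none had an earlier peak. Their peaks were 276, 370 and 157 bp in aNE_H and 214, 134 and 142 bp in pNE_H. All 3 were narrower in pNE_H than in aNE_H.

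Members also lay at genes of retinoid synthesis and uptake. ALDH1A3, a retinoic acid synthesis enzyme, had 2 among 39 regions, 13.0 kb upstream and 61.9 kb downstream of its nearest start. STRA6, the receptor for retinol-binding protein, had 2 among 48, of which the one at chr15:74250990-74251561 had peaks of 335 and 538 bp and no earlier peak. NRIP1, a nuclear receptor corepressor, also had 2, and the receptor gene RARG had 1. The breakdown enzyme CYP26A1 had none, and its nearest member lay 348 kb away.

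Genes of the WNT and FGF pathways held members at rates near the background. The WNT list had 12 of 961 regions, or 1.25 per 100 (0.716 to 2.17), at 10 of 22 genes. RNF43, a membrane inhibitor of WNT receptors, and TCF7L1, a repressor of WNT targets, had 2 each. At the RNF43 member chr17:58388396-58389099, open in DE, aNE and pNE, the aNE_H and pNE_H peaks shared 0 bp. LEF1, LGR5, NOTUM, SP5, TCF7L2 and WNT1 were among the genes with 1 each. Of the 12 members 9 had no earlier peak, as had 51.4% of all members. The FGF list had 6 of 697, or 0.861 per 100 (0.395 to 1.87), with 1 each at DUSP6, ETV4, FGF2, FGF19, SPRED1 and SPRED2.

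**Figure D5:**
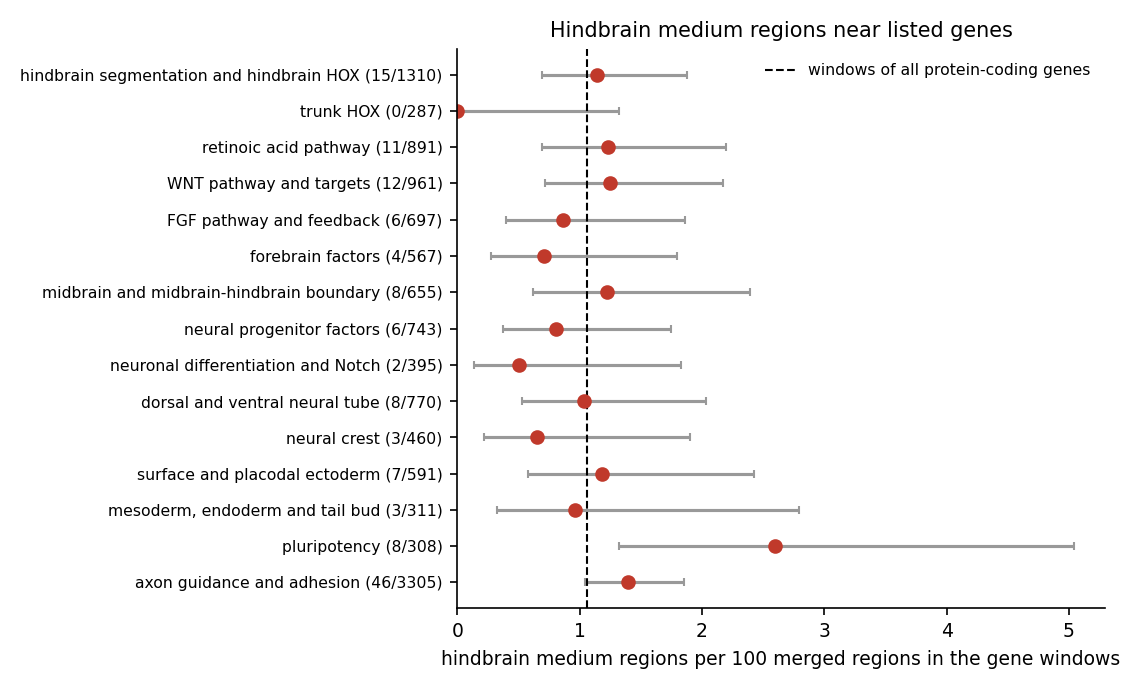
Hindbrain medium regions per 100 merged regions in windows of 50 kb around the genes of 15 lists (points), with Wilson 95% intervals and, in brackets, members over regions. The dashed line is the value for all protein-coding genes, 1.06, and lies inside the interval of every list except pluripotency.

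Lists of other fates gave the comparison. Forebrain factors had 4 of 567, or 0.705 per 100 (0.275 to 1.80), at 3 of 19 matched genes. OTX2, the factor of forebrain and midbrain identity, had 2 of these. One at chr14:56810942-56811149 lay 0.567 kb upstream of its nearest start and was open in DE and aNE and closed in pNE, and the other, 46.5 kb upstream, had no earlier peak. Midbrain and boundary genes had 8 of 655, or 1.22 per 100 (0.620 to 2.39), with 1 each at PAX2, PAX5, LMX1A, LMX1B, CNPY1 and WNT1 besides OTX2.

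Neural progenitor genes had 6 of 743, or 0.808 per 100 (0.371 to 1.75). SOX2 had 2 of them, at chr3:181712819-181713114 and chr3:181715535-181715715, 1.04 and 3.70 kb downstream of its start. The first was open in hPSC and the second had no earlier peak. Neuronal differentiation genes had 2 of 395 (0.506, 0.139 to 1.83), dorsal and ventral neural tube genes 8 of 770 (1.04, 0.527 to 2.04) and neural crest genes 3 of 460 (0.652, 0.222 to 1.90). Markers of surface ectoderm gave 7 of 591 (1.18, 0.575 to 2.42) and of mesoderm, endoderm and tail bud 3 of 311 (0.965, 0.329 to 2.80).

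The highest rate was at pluripotency genes, with 8 of 308 or 2.60 per 100 (1.32 to 5.04). It rested on 4 of 11 matched genes. ZFP42 had 3 among 28 regions and LIN28B, an RNA-binding regulator of stem cells, 3 among 73, while DPPA4 and UTF1 had 1 each. Of the 8 members 2 were open in hPSC, 4 in DE, 1 in aNE and 3 in pNE, and 4 had no earlier peak. All 3 at LIN28B were among those 4. The list is 1 of 15 and was not tested.

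Axon guidance and adhesion genes had 46 of 3305, or 1.39 per 100 (1.05 to 1.85), at 16 of 25 genes. They are long genes with a median of 101 regions in the window. TENM3 had 8 among 311, ROBO1 5 among 211, TENM2 5 among 302, and UNC5C 4 among 94. ROBO2 and TENM4 also had 4 each. Of the 46 members 26 had no earlier peak, 9 were open in pNE and 3 in aNE. Over all members these shares were 51.4%, 27.6% and 7.81%.

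Counting each member for the protein-coding gene with the nearest end gave 3359 genes, of which 2271 had 1 member and 121 had 5 or more. PCDH9, a protocadherin gene of the nervous system on chromosome 13 (66302834 to 67230336), had the most, with 13 of its 422 regions. Of these 13 members 12 had no earlier peak and 0 were open in pNE, against 51.4% and 27.6% of all members. TENM3 had 12 of 599, ROBO1 11 of 361 and EFNA5, an ephrin, 11 of 386. SLITRK6 had 10 of 212, ERBB4, a neuregulin receptor, 10 of 250 and PTPRD 10 of 453. PLA2G4A, LRP1B and TENM2 had 9 each, and CDH9 and TRIB2 had 8 each. All 8 at CDH9, a cadherin gene, lacked an earlier peak. The 15 genes with the most members had a median length of 928 kb, against 24.5 kb over all protein-coding genes.

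The widest members give the clearest single cases, ranked by the smaller of the aNE_H and pNE_H widths. Among those without an earlier peak the widest was at chr5:163040814-163041731, 396 kb from the end of CCNG1, with peaks of 531 bp in aNE_H and 891 bp in pNE_H. The next were at chr13:60229728-60230221 (486 and 469 bp) near DIAPH3, chr5:14076739-14077232 (454 bp in both) between DNAH5 and TRIO, and chr6:104018897-104019583 (453 and 687 bp), 709 kb from HACE1. The fifth was at chr4:73770127-73770616 (468 and 450 bp), 26.4 kb from the end of the chemokine gene CXCL8. All 5 lay outside protein-coding genes.

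Of the members with a pNE peak but no aNE peak the widest was at chr3:77844960-77845721, with peaks of 524 and 630 bp, 195 kb beyond ROBO2. Another, at chr3:39362064-39362734 (520 and 571 bp), lay 20.6 kb from SLC25A38, and one at chr13:72954039-72954672 (613 and 510 bp) lay inside PIBF1. These 3 were open in pNE alone. The member at chr5:18736690-18737375 (506 and 640 bp), 734 kb from the neural cadherin gene CDH18, was open in hPSC too. That at chr1:200549339-200550189 (492 and 503 bp), 1.31 kb from KIF14, was open in hPSC and DE as well.

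The opposite day 2 state was rarer, at 218 members (4.03%) against 1285 (23.8%). It was also the rarer over all merged regions, at 5.55% against 12.7%, and in the midbrain pair, at 6.17% against 17.2%. In the telencephalon pair it was the commoner, at 23.9% against 6.39%. The widest of the 218 members, at chr5:58060780-58061560, had peaks of 518 and 781 bp and was open in aNE alone. So was one inside BRD1 at chr22:49790672-49791171 (403 and 415 bp). Of the members open in all 4 earlier lists the widest was at chr18:56562614-56563113 (347 and 402 bp), 34.1 kb from TXNL1. The next 2 lay inside ADCY2 at chr5:7410937-7411414 and inside PWWP2B at chr10:132400717-132401112. These were open on days 0, 1 and 2, closed in both telencephalon and both midbrain medium lists, and open in both hindbrain medium lists.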

How the data were processed

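The authors deposited 1 peak list per group. Each has 3 columns (sequence name, start and end, a unit of positions with no score) and no value per library. Per the submitters' processing notes the tools were FastQC, Bowtie2, MACS2, bedtools, featureCounts, edgeR and deepTools and the build was hg38. Their versions and roles, the peak threshold and how replicates were combined are not given in the sources used here. The threshold sets every count here.

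Gene positions came from RefSeq GRCh38.p14 (19122 protein-coding genes), and start sites and promoter sequences from its promoter table, which was not used for chromosome 8. Of 270 distinct listed genes, 265 were matched on chromosomes 1 to 22. Members and lists were chosen with earlier results of these data known. Up to 8 genes with the most members were to be named per list, ties in alphabetical order, and not all of them are described. The 15 genes with most members and 10 with the highest share, the 10 densest windows and the widest members by earlier state were to be named, and some genes, those on chromosome 8 among them, were counted but are not reported here. Motifs and sequences were planned for region middles and were limited to promoter windows.

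With 1 list per group no test was made; shares have Wilson 95% intervals. On 20000 simulated regions the code returned every member with 0 false ones. Those regions lay far apart and their peaks always overlapped, so neighbouring or non-overlapping peaks were not tried. Python 3.11.15, numpy 2.4.6, pandas 2.3.3, scipy 1.17.1 and matplotlib 3.10.9 were used.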

Additional observations from a re-analysis of the deposited data

Results flagged for a closer look

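Chromosome X was not used above, and its peaks hold 188 regions that meet the same rule. They are 1.12 of every 100 of its 16790 merged regions, beside 1.13% on chromosomes 1 to 22. Of the 188, pNE was open at 23.9%, aNE at 7.45%, DE at 22.9% and hPSC at 22.3%, and 53.7% had no earlier peak. Over all regions of chromosome X, 38.6% were open in pNE and 31.3% in aNE.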

How the results depend on the processing

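Of 6 alternatives, 5 were set with the design; dropping peaks under 126 bp from every list, the largest of the lists' narrowest widths, was chosen after seeing the data. So were all settings for the pair shares, the ratio of pNE to aNE, the rate per 100 regions and the day 2 difference at telencephalon medium regions. Neither difference between the pNE and aNE shares, at members or at telencephalon medium regions, changed sign. The other results are counts, shares and rates, which cannot change sign. With every list trimmed to its widest 162041 peaks the number of members was 2251, and 5 hindbrain list genes had a member. The shares were then 19.6% in hPSC, 17.7% in DE, 14.7% in aNE and 31.6% in pNE, with 50.02% open in none and a day 2 difference of 17.0 points. With 50% coverage the shares were 12.6%, 13.9%, 4.07% and 20.4%, with 64.3% open in none and a difference of 16.3 points. With 500 bp windows at peak middles they were 23.02% in hPSC and 25.2% in DE, with 49.8% in none and 9.36% near a gene end. With peaks under 126 bp dropped, 19.6% were open in hPSC, 21.2% in DE and 53.1% in none. Where no closed list peak lay within 500 bp, 6.97% were near a gene end. In all 43 values stayed within their interval, or for counts within 1.5 times, and 31 moved. No paired analysis was possible because the lists carry no replicate, and leaving out a replicate could not be done for the same reason. Read depth is unknown, so a region without a peak may be open below the caller's threshold.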

Other observations

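Genes with the highest share of members among at least 20 nearest regions were a different group from those with the most. ZFR2 had 3 of 22 regions, SLC13A3, a dicarboxylate transporter gene, 3 of 25, CABCOCO1 5 of 45 and RNPC3 4 of 38. KCNN1, PLA2G4D, PRRC1 and TMEM45A had 2 of 20 each, and DIP2C 2 of 21. All 3 members at SLC13A3 were open in hPSC and 2 of them in pNE, while 4 of the 5 at CABCOCO1 had no earlier peak. These shares rest on 2 to 5 members each.

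The densest windows of 100 kb held 4 members each. One, on chromosome 13 from 48400001 to 48500000, spans parts of RB1, LPAR6 and RCBTB2 and had 18 merged regions in all. The other, on chromosome 12 from 76100001 to 76200000, has no protein-coding gene and had 29. Among windows with 3, that with the fewest regions, 9, is on chromosome 7 from 111100001 to 111200000, at IMMP2L and LRRN3. The window of CXCL8 on chromosome 4 had 3 of 12 and one inside LRP1B on chromosome 2 had 3 of 13.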
